A study of Homo sapiens with 15 samples.

Results

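The proteasome subunit genes were taken as every row of the deposited count table whose symbol is PSM, a letter from A to F and a number. This rule gave 44 genes of 19612 gene symbols. They encode the rings of the 20S core (PSMA and PSMB), the ATPases, lid, base and assembly chaperones of the 19S cap (PSMC and PSMD), the activators PSME1 to PSME4 and the inhibitor PSMF1. The samples were 15 libraries of the human lung adenocarcinoma cell line H1975, which carries mutant EGFR, and of H1975–OR, a single osimertinib-resistant line derived from it. Osimertinib is an EGFR inhibitor, and 1,25(OH)2D3 is the hormonally active form of vitamin D3. H1975 was given vehicle in Samples 1a, 1b and 1c. H1975–OR was given vehicle in Samples 2a, 2b and 2c and 1,25(OH)2D3 at 100 nM in Samples 3a, 3b and 3c. It was given osimertinib at 500 nM in Samples 4a, 4b and 4c, and the combination, at the same doses, in Samples 5a, 5b and 5c. Cells were treated for 96 h and dosed at 0, 48 and 92 h, and the 3 libraries of a condition came from separate passages. The routine medium of H1975–OR contained 500 nM osimertinib. By the methods of the study, fresh medium with charcoal-stripped serum took its place when treatment began, with osimertinib only in the arms that received it. H1975 was sequenced only with vehicle, so the effect of either agent in the parental line was not measured.

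The proteasome is the main protease for ubiquitin-tagged proteins in the cytosol and nucleus. In the 20S core, rings of alpha subunits gate the entry to rings of beta subunits, and PSMB6, PSMB7 and PSMB5 carry the caspase-like, trypsin-like and chymotrypsin-like sites. PSMB9, PSMB10 and PSMB8 replace these in the immunoproteasome, which shapes peptides for antigen presentation. In the 19S cap, the ATPases unfold substrates, PSMD2 and PSMD4 bind ubiquitin or ubiquitin-like domains, and PSMD14 removes the ubiquitin chain. When proteasome activity is short, the transcription factor NFE2L1 raises subunit genes together.

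The promoter sequences of some genes that moved are shown first, to let their differences be seen. Windows from 250 bases before to 50 bases after the transcription start (RefSeq, GRCh38.p14) were found for 39 of 44 genes, but not for PSMA7, PSMB1, PSMB6, PSMB7 and PSMD4. Each was searched on both strands for TGANNNNGC, the core of the antioxidant response element that NFE2L1 can bind, for CCGGAAG, an ETS site, and for CCAAT, the NF-Y box. Matches may overlap, as TGANNNNGC and CCAAT do at PSMA3. Shown here are 4 genes that were lower in H1975–OR than in H1975 and 1 of the 2 that were higher, PSMB10. Each is given 5′ to 3′ on the strand of the gene. Capitals mark the matches.
PSMD2 promoter, chr3:184298991-184299290, plus strand: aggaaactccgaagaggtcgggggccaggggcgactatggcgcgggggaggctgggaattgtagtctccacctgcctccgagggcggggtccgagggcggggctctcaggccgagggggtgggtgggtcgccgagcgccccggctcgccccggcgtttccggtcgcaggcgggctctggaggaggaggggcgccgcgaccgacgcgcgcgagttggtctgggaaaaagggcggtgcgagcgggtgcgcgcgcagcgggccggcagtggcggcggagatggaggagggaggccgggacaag
PSMC2 promoter, chr7:103347393-103347692, plus strand: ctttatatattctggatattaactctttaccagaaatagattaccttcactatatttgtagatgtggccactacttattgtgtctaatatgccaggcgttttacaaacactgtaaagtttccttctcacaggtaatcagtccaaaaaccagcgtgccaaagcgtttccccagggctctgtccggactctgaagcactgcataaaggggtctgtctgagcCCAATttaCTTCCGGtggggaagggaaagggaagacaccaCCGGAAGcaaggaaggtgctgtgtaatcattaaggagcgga
PSMD14 promoter, chr2:161308175-161308474, plus strand: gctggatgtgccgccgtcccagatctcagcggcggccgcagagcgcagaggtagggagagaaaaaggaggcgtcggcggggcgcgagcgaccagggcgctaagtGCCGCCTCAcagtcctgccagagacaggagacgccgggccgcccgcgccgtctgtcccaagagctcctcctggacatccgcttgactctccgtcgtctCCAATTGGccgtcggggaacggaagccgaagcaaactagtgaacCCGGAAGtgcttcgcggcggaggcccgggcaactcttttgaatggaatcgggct
PSMA3 promoter, chr14:58244593-58244892, plus strand: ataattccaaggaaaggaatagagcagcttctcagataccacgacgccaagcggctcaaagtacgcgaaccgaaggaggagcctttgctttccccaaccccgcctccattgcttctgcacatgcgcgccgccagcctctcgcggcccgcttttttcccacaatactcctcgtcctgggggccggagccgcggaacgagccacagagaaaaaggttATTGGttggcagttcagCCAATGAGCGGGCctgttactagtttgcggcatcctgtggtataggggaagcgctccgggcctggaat
PSMB10 promoter, chr16:67936801-67937100, minus strand: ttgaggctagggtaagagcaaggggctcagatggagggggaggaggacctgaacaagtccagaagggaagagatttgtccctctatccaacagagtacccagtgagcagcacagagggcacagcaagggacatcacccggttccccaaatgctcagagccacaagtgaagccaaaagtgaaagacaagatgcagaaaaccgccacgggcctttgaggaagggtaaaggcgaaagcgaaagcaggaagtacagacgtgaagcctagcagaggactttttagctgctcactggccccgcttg
The windows of PSMD2 and PSMB10 held none of these letters, while that of PSMD14 held all the motifs. Over the proteasome genes, TGANNNNGC was present in 24 of 39 windows (61.5%), against 42.1% of 27305 promoters of the same length and 42.6% of the 9892 promoters of genes tested here. CCGGAAG was in 12 of 39 (30.8%), against 10.7% and 19.5%. CCAAT was in 18 of 39 (46.2%), against 35.7% and 36.3%. Of the 9 windows of genes that were lower in H1975–OR, 5 held TGANNNNGC, 4 held CCGGAAG and 6 held CCAAT. Of the 28 windows of the other members, 18, 8 and 11 held them. These 28 include PSMA8 and PSMB11, which had no counts and were not tested. Of the 2 windows of genes that were higher, that of PSMA5 held TGANNNNGC 5 times and CCAAT 2 times, and that of PSMB10 held none. A match is a run of letters and not evidence that a factor was bound.

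The libraries held between 4378033 and 6140025 estimated counts (median 4974768). Levels are given as CPM, each count scaled by the library total after TMM adjustment, and changes as log2 fold changes with their standard error from the fit. An adjusted p comes from the quasi-likelihood test of edgeR, adjusted over all genes tested by the Benjamini-Hochberg method, and a gene is called at an adjusted p under 0.05. Sample 3a was left out of the tests, and its values are given apart. It stood apart in these genes, being the lowest of the 12 H1975–OR libraries for 16 of the 42 tested members (38.1%), against 18.8% of 12234 genes. CYP24A1, the vitamin D catabolic enzyme, was higher with 1,25(OH)2D3 by 7.71 on the log2 scale, and by 7.06 on top of osimertinib. The summed level of 5 epithelial markers was at least 3140.0 CPM in every library. It was 4459 to 5501 CPM in H1975 and 3533 to 3893 CPM in vehicle-treated H1975–OR, with EPCAM, KRT19 and KRT7 called lower and KRT18 higher, and its part in the differences of proteasome genes was not tested. That of 6 leukocyte markers was at most 8.32 CPM, except 53.1 CPM in Sample 3a, and the T-cell gene CD3E had no count in any library.

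Most proteasome genes had counts in every library. PSMA8, the testis form of an alpha subunit, and PSMB11, the thymus form of a beta subunit, had 0 counts in all 15 libraries, and the other 42 members passed the filter on low counts. Per kilobase of the canonical transcript (GENCODE release 44), the 31 constitutive genes of the core and cap had a median of 88.7 CPM per kb in vehicle-treated H1975–OR. PSMB4, a beta subunit, had the highest level at 403 CPM per kb, followed by PSMB7 at 258 and PSMB1 at 252. The lowest were PSMA5 at 2.34 CPM per kb, PSMB2 at 11.1 and PSMD12 at 13.1. For PSMA5, PSMB2 and PSMD12 the canonical transcript is 3815, 4426 and 4356 bases long, and a shorter transcript in use would give a higher value. The level of PSMA5 was low before division by length too, at a mean of 8.92 CPM in vehicle-treated H1975–OR. In H1975 the median of these 31 genes was 108 CPM per kb.

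The spread between libraries of a group was small for most members. The median of their standard deviations on the log2(CPM + 2) scale was 0.206, against 0.283 for 12234 genes. It was 0.202 for the 4146 genes with a mean of 44.5 to 227 CPM. That range holds most members but not the lowest and highest. PSMD13, a lid subunit, and PSME1, an 11S activator subunit, were exceptions, at 1.23 and 1.29. PSMD13 ranged from 3.30 to 86.3 CPM over the 15 libraries and PSME1 from 4.27 to 171 CPM, and the H1975 and vehicle-treated H1975–OR ranges of both genes overlap.

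**Figure D1:**
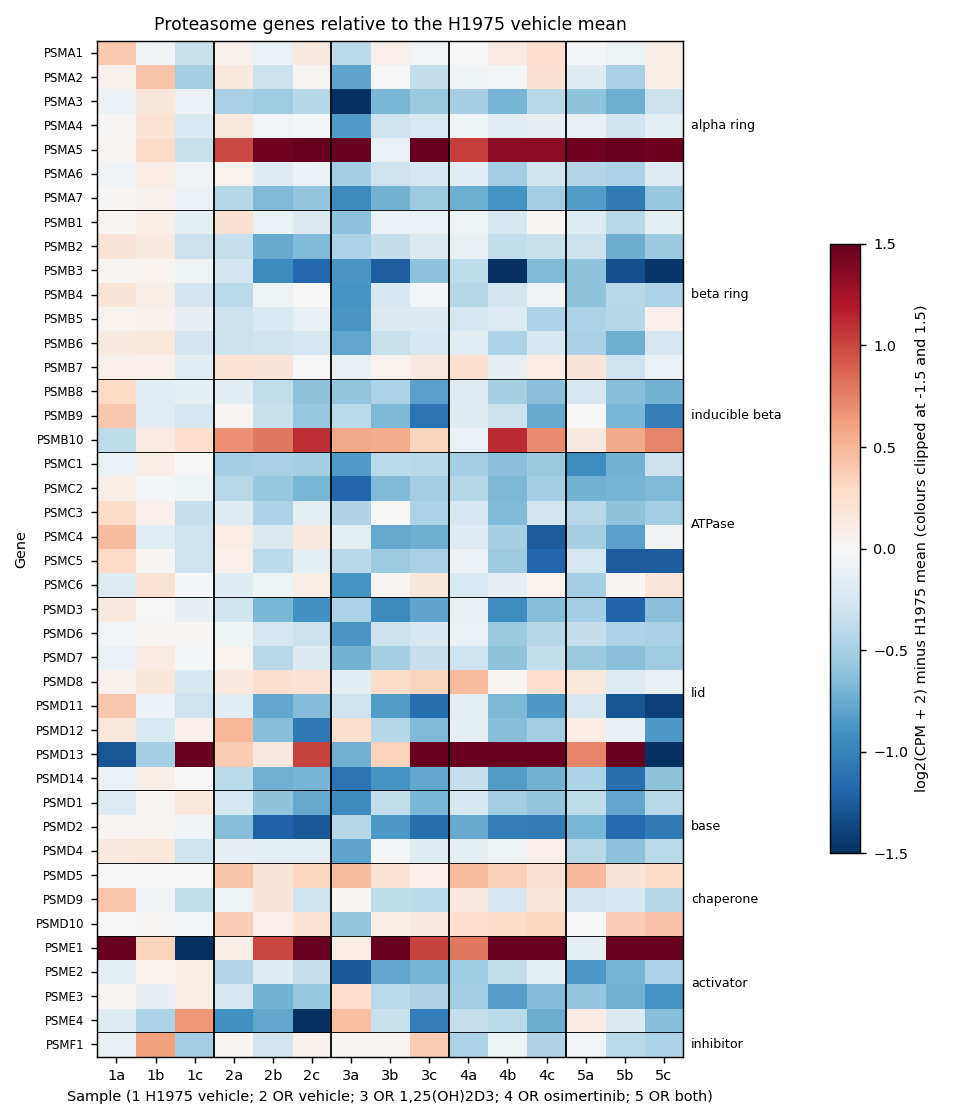
Level of the 42 tested members (rows, by class) in the 15 libraries (columns), as log2(CPM + 2) minus the mean of the 3 H1975 libraries, with colours clipped at the ends of the scale. Blue, below the H1975 mean, prevails in the H1975–OR columns, while PSMB10 and PSMA5 are mostly red there, and Sample 3a has the lowest value of the H1975–OR libraries for 16 members.

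The comparison of vehicle-treated H1975–OR with vehicle-treated H1975 asks how the resistant line differs from its parent. Only H1975–OR had been taken off osimertinib, so within this comparison a difference of line and an effect of withdrawal cannot be told apart. The ATPase, lid and base genes summed to a mean of 2325 CPM in H1975–OR given osimertinib, 2323 with vehicle and 3095 in H1975. The constitutive core genes summed to 2410, 2525 and 2899 CPM in the same order. The osimertinib arm was not tested against H1975. Proteasome genes differed mainly downwards. Of 42 tested members, 10 were called lower (23.8%), where 10.3% of 12513 genes were, and 2 were called higher (4.76%), where 9.89% of genes were. The lower genes came from the 20S core (PSMA3, PSMA7, PSMB2), the 19S cap (PSMC1, PSMC2, PSMD2, PSMD3, PSMD14) and the activators (PSME3, PSME4). The higher genes were PSMB10 and PSMA5. The log2 fold change was below 0 for 33 of 42 members, with a median of −0.18, whereas 49.6% of all genes were below 0, with a median of 0.0061. In bulk RNA, a changed share of cells of one kind and changed RNA per cell cannot be told apart. H1975–OR is 1 line, so the p-values measure the spread between passages and not between independently derived resistant lines.

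The groups did not overlap for 15 of 42 members on the lower side (35.7%, against 20.3% of all genes) and for 4 on the higher side (9.52%, against 19.0% of all genes). Beside called genes, the lower side held PSMB3, PSMB8, PSMD1, PSMD6 and PSME2, and the higher side held the assembly chaperones PSMD5 and PSMD10. Closest to the threshold among called genes were PSME4 (adjusted p = 0.0491), PSMB2 (0.0487) and PSMA5 (0.0485). Closest outside it were PSMD1 (0.0519), PSMD5 (0.0608) and PSMB3 (0.0642).

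The size of the list rested on single libraries. It was 6 genes without Sample 1b, 2b or 2c, and 15 without Sample 2a. The count over all genes moved too, from 2521 to 1426, 1441 and 1672 without Sample 1b, 2b or 2c and to 2835 without Sample 2a. With Sample 3a kept in the fit it was 4 genes, namely PSMA7, PSMB10, PSMD14 and PSMD2, although 3a belongs to neither group compared and enters through the shared estimate of the spread. Over all genes that fit called 1636. PSMD2, PSMA7 and PSMD14 were called lower under all 13 alternatives run, and PSMC1 and PSMC2 under 12 of them.

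**Figure D2:**
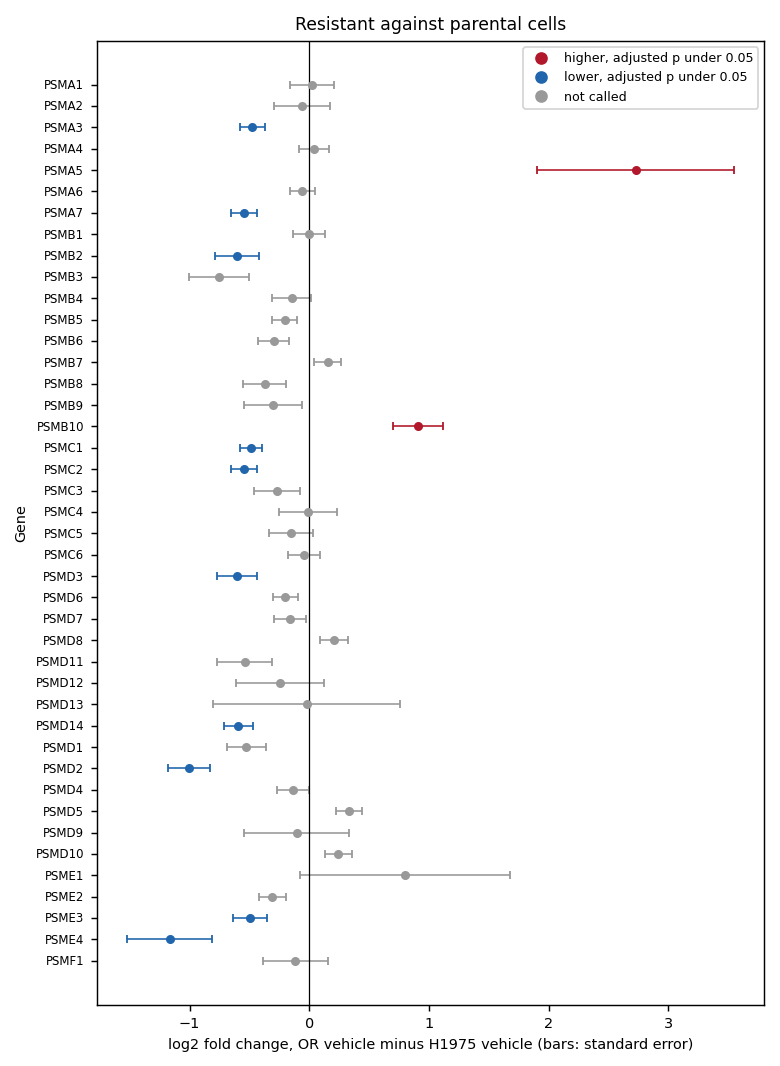
Log2 fold change of each tested member in vehicle-treated H1975–OR against vehicle-treated H1975 (x axis, bars are standard errors), by class from the alpha ring at the top. Of the 12 coloured genes 10 lie left of 0, and PSME1, with a standard error of 0.88, is the least precise of the activators.

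The cap genes gave the most even picture. Of the 17 genes of its ATPases, lid and base, 16 had a log2 fold change below 0, with a median of −0.25, and 5 were called lower and 0 higher. PSMD2, the large base scaffold, was at 504, 503 and 475 CPM in H1975 and at 316, 212 and 203 CPM in vehicle-treated H1975–OR. Every resistant library lay below every parental library, and the log2 fold change of PSMD2 was −1.01 ± 0.18 (SE, adjusted p = 0.00587). PSMD14, the deubiquitinase of the lid, was at 162, 183 and 173 CPM in H1975 and at 129.7, 104 and 105 CPM in H1975–OR. Here too the groups were apart, with a log2 fold change of −0.59 ± 0.12 (adjusted p = 0.0111).

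Among the ATPases, PSMC1 had 271, 312 and 289 CPM in H1975 and 202, 207 and 206 CPM in H1975–OR. The resistant libraries of PSMC1 differed little from each other, and its log2 fold change was −0.49 ± 0.09 (adjusted p = 0.00802). PSMC2 had 289, 263 and 258 CPM in H1975 and 201, 182 and 168 CPM in H1975–OR, a log2 fold change of −0.54 ± 0.11 (adjusted p = 0.0102). PSMC4 was the ATPase with the smallest difference, −0.01 (adjusted p = 0.982), from a low mean level of 33.0 ± 10.6 CPM (SD, n = 3) in H1975 and 32.5 ± 4.48 CPM (SD, n = 3) in H1975–OR. In the lid, PSMD3 was lower by 0.61 on the log2 scale (adjusted p = 0.0344), but missed the threshold without any 1 of Samples 1a, 1b, 1c, 2b and 2c (0.0516 to 0.110). PSMD8 had the highest value of the lid, 0.21, which was not called. The ubiquitin receptor PSMD4 was the least changed base gene, at −0.14. PSMC4, PSMD8 and PSMD4 thus mark the upper end of their classes and none of them was called.

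In the 20S core, 10 of 14 constitutive genes had a log2 fold change below 0, with 3 called lower and 1 called higher. PSMA7, an alpha ring subunit, was at 317, 325 and 294 CPM in H1975 and at 232, 197 and 206 CPM in H1975–OR, a log2 fold change of −0.54 ± 0.11 (adjusted p = 0.00929). PSMA3, another alpha subunit, was at 251, 301 and 249 CPM in H1975 and at 189, 183 and 198 CPM in H1975–OR, a log2 fold change of −0.48 ± 0.11 (adjusted p = 0.0161). In both genes the groups were apart, and the parental libraries were the high ones. PSMB2, a beta subunit without a catalytic site, was at 85.1, 82.0 and 58.8 CPM in H1975 and at 57.9, 43.2 and 46.3 CPM in H1975–OR. Its groups were separated only by the narrow gap between Samples 1c and 2a, with a log2 fold change of −0.60 ± 0.18 (adjusted p = 0.0487). PSMB2 missed the threshold without any 1 of Samples 1a, 1b, 2b and 2c (adjusted p from 0.117 to 0.152), and PSMA3 without Sample 1b (0.0525) or 2b (0.0634).

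The catalytic genes of the standard core were not called. The log2 fold change was −0.21 for PSMB5 (adjusted p = 0.190), −0.30 for PSMB6 (adjusted p = 0.138) and 0.15 for PSMB7 (adjusted p = 0.368). PSMB7 was the highest and PSMB3, at −0.76, the lowest of the beta ring.

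PSMA5 was the alpha gene called higher, where PSMA3 and PSMA7 were called lower and the other 4 were not called. It had 1.39, 2.01 and 0.611 CPM in H1975 and 4.50, 7.03 and 15.2 CPM in H1975–OR, so that every resistant library was above every parental one. The log2 fold change was 2.73 ± 0.82 (adjusted p = 0.0485), but it rests on between 3 and 79 counts per library, and PSMA5 was called in 5 of the 12 alternatives that tested it. Without any 1 library other than Sample 2a it missed the threshold (adjusted p from 0.0885 to 0.154). The other alpha genes lay between 45.7 (PSMA4) and 220.0 (PSMA7) CPM per kb in vehicle-treated H1975–OR, against 2.34 for PSMA5.

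The inducible subunits of the immunoproteasome did not move together. PSMB10, the trypsin-like inducible subunit, was at 21.7, 31.4 and 34.8 CPM in H1975 and at 47.3, 51.1 and 64.2 CPM in H1975–OR. The groups of PSMB10 were apart, and its log2 fold change was 0.91 ± 0.21 (adjusted p = 0.0181). PSMB8 was at 164, 119 and 122 CPM in H1975 and at 119, 103 and 87.2 CPM in H1975–OR, and PSMB9 at 82.3, 55.1 and 51.1 CPM against 62.2, 48.4 and 40.7 CPM. Neither was called, with log2 fold changes of −0.37 (adjusted p = 0.179) and −0.30 (adjusted p = 0.413). The ends of PSMB8 and PSMB9 overlap on opposite strands in GENCODE, and whether the counting used strand is not given in the sources used here. Without Sample 1b PSMB10 missed the threshold (adjusted p = 0.0545), and likewise without Sample 2c (adjusted p = 0.0626) and in one fit of 14 libraries (adjusted p = 0.0518).

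Set against the standard subunit it replaces, PSMB10 stood at 0.0901 to 0.170 of the level of PSMB7 per kb in H1975 and at 0.179 to 0.280 in vehicle-treated H1975–OR. These ranges do not overlap. The ratio of PSMB8 to PSMB5 was between 0.511 and 0.705 in H1975 and between 0.422 and 0.665 in H1975–OR. That of PSMB9 to PSMB6 was between 0.176 and 0.267 in H1975 and between 0.174 and 0.277 in H1975–OR, and both pairs of ranges overlap.

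Of the 4 activator genes, 2 were called lower. PSME3 encodes the nuclear activator PA28 gamma and PSME4 the activator PA200. PSME3 was at 110.0, 98.8 and 115 CPM in H1975 and at 90.0, 65.2 and 72.3 CPM in H1975–OR, a log2 fold change of −0.49 ± 0.14 (adjusted p = 0.0428). PSME4 was at 67.6, 55.4 and 122 CPM in H1975 and at 40.1, 44.1 and 23.7 CPM in H1975–OR, a log2 fold change of −1.17 ± 0.35 (adjusted p = 0.0491). Both had groups that did not overlap, with Sample 1c of PSME4 well above the other parental libraries. PSME2 was lower by 0.31 without being called (adjusted p = 0.0954), and its partner PSME1 had a log2 fold change of 0.80 ± 0.88 (adjusted p = 0.563). The inhibitor PSMF1 gave −0.12 (adjusted p = 0.794). Of the chaperones of cap assembly, PSMD5 was the highest at 0.33 and PSMD9 the lowest at −0.11, and 0 of 3 were called. PSME3 missed the threshold without any 1 of Samples 1a, 1b, 1c, 2b and 2c (adjusted p from 0.0642 to 0.139), and PSME4 without any 1 of Samples 1a, 1c, 2a, 2b and 2c (0.0622 to 0.141).

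**Figure D3:**
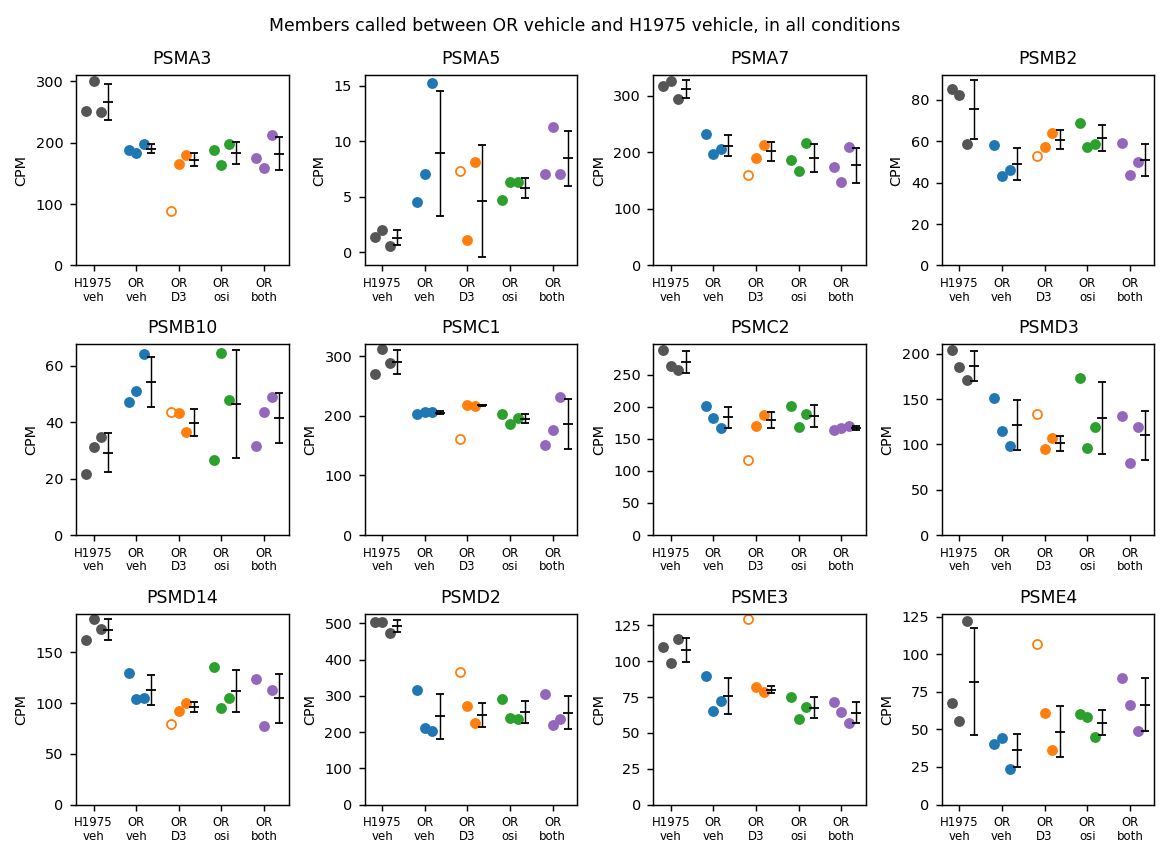
CPM in each library (points, Sample 3a open) of the 12 members called between vehicle-treated H1975–OR and H1975, with mean and standard deviation beside them (3 libraries, or 2 with 1,25(OH)2D3). The H1975 points lie above the vehicle-treated H1975–OR points for 10 genes and below them for PSMB10 and PSMA5.

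The summed level shows the same difference per library. The 17 cap genes summed to between 2952 and 3185 CPM in H1975 and between 2167 and 2602 CPM in vehicle-treated H1975–OR, 75.1% of the parental mean. The 14 core genes summed to between 2509 and 3160.0 CPM in H1975 and between 2420.0 and 2630.0 CPM in H1975–OR, 87.1% of the parental mean. The ranges of the cap sum do not overlap, while those of the core sum do. Core and cap together had a mean of 5994 ± 469 CPM (SD, n = 3) in H1975 and of 4848 ± 339 CPM (SD, n = 3) in H1975–OR. The sums of inducible genes and of activators were 91.5% and 79.8% of the parental mean. A sum follows its most abundant genes and is given as a description without a test.

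**Figure D4:**
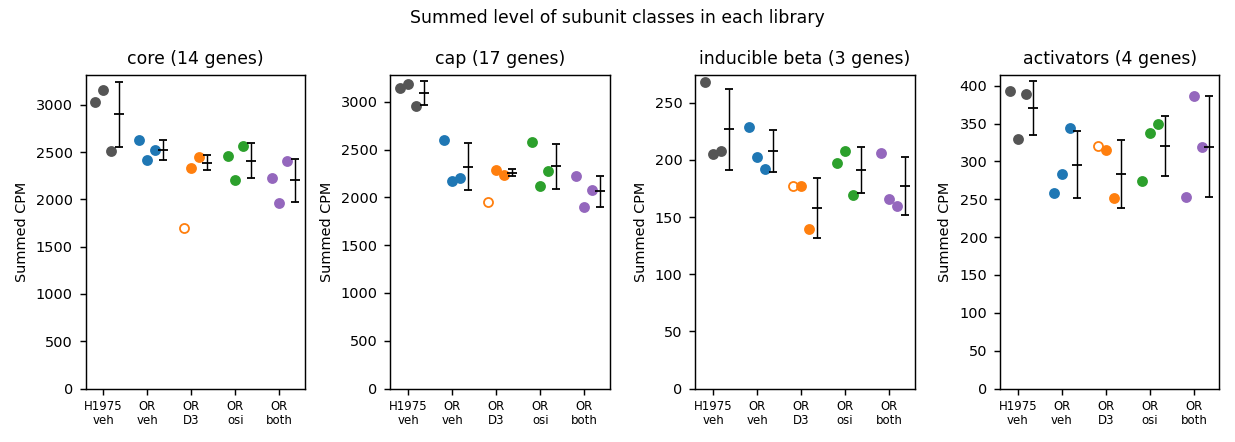
Summed CPM of the core, cap, inducible and activator genes in each library (points, Sample 3a open), with mean and standard deviation (3 libraries, or 2 with 1,25(OH)2D3). The cap sums of vehicle-treated H1975–OR, 2167 to 2602 CPM, all lie below those of H1975, 2952 to 3185 CPM.

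Other genes of the pathway were called about as often as genes in general. Of 41 genes for assembly factors, attached proteins, ubiquitin, its carriers, antigen processing and the NFE2L1 route, 4 were called higher and 4 lower, where 9.89% and 10.3% of all genes were, with a median log2 fold change of −0.057. RPS27A, which encodes ubiquitin fused to a ribosomal protein, was higher by 0.63 on the log2 scale (adjusted p = 0.00328). UBA6, a ubiquitin-activating enzyme, was lower by 0.52 (adjusted p = 0.0153), and the shuttle gene UBQLN4 by 0.47 (adjusted p = 0.0435). The core assembly chaperone PSMG3 was at 85.1, 93.7 and 93.6 CPM in H1975 and at 60.8, 47.0 and 58.2 CPM in H1975–OR, with the groups apart (log2 fold change −0.70, adjusted p = 0.0116). KIAA0368, also called ECPAS and known as a proteasome adaptor and scaffold, was higher by 0.56 (adjusted p = 0.0256). ERAP2, a peptide-trimming aminopeptidase, was higher by 0.57 (adjusted p = 0.0408). NFE2L1 itself was not called, with a log2 fold change of 0.43 (adjusted p = 0.0592), nor were its activating protease DDI2 (0.14) and the assembly factor POMP (−0.10).

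Shared reads limit some of these values. In GENCODE, 16 members have pseudogenes named after them, 42 in all, with 13 for PSMC1 and 6 for PSME2. Among the called genes, PSMA3, PSMA5, PSMC1, PSMC2 and PSMD14 have at least 1, and an aligner that shares reads among similar transcripts may split their counts.

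The other comparisons ask what 1,25(OH)2D3, osimertinib and their combination do in H1975–OR. Several share the vehicle-treated H1975–OR libraries, so they are not independent of each other or of the comparison with H1975. As H1975–OR came from medium with osimertinib, its vehicle arm is also a withdrawal of that drug. With 1,25(OH)2D3 alone, DESeq2 called 0 of 42 members and 123 of 16791 genes. By edgeR 0 members were called too, where 0.152% of genes were called higher and 0.0% lower. At an unadjusted p under 0.05 there were 2 members, both with lower levels, PSME2 and PSMC4, or 4.76% of members where 7.27% of all genes passed. PSME2, an 11S subunit, was at 102, 122 and 109 CPM with vehicle and at 80.1 and 84.6 CPM with 1,25(OH)2D3, a log2 fold change of −0.43 (adjusted p = 0.495). PSMC4 was at 34.6, 27.3 and 35.5 CPM with vehicle and at 18.1 and 18.4 CPM with 1,25(OH)2D3, a log2 fold change of −0.83 (adjusted p = 0.533). The treated libraries were the low ones for both, and Sample 3a was at 56.8 CPM for PSME2 and at 28.6 CPM for PSMC4. PSMB9, at 62.2, 48.4 and 40.7 CPM with vehicle and at 37.8 and 27.5 CPM with 1,25(OH)2D3, followed with a log2 fold change of −0.63 (adjusted p = 0.688). Sample 3a was at 46.0 CPM for PSMB9, within the vehicle range. With Sample 3a kept in the fit, the log2 fold change of PSMB9 was −0.44.

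The median log2 fold change of the members with 1,25(OH)2D3 was −0.079, with 28 of 42 below 0, and that of all genes was −0.0073. Keeping Sample 3a moved the median to −0.19, and 35 of 42 were below 0, with 0 members called by edgeR. In Sample 3a, 27 of 42 members lay below the mean of Samples 3b and 3c. The median log2 difference was −0.28 over all 42 and −0.014 over all genes. Core and cap summed to 3653 CPM there, against 4613 and 4677 CPM in the other libraries with 1,25(OH)2D3. The higher leukocyte marker sum of this library, given above, went with these lower values, and its part in them was not tested.

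With osimertinib against vehicle, DESeq2 called 0 of 42 members and 116 of 16986 genes. By edgeR again 0 members were called, where 0.032% of genes were called higher and 0.016% lower. At an unadjusted p under 0.05 there were 0 members, where 7.53% of all genes passed, and the median of the members was −0.051, against 0.0075 for all genes. The smallest p were those of PSMC4 (log2 fold change −0.64, adjusted p = 0.678), PSME4 (0.61, adjusted p = 0.679) and PSMA6, an alpha subunit (−0.25, adjusted p = 0.703). The largest log2 fold change was that of PSMD13, 1.40 ± 0.73 (SE, adjusted p = 0.734), at 25.8, 21.7 and 41.3 CPM with vehicle and at 62.4, 85.2 and 86.3 CPM with osimertinib. These groups do not overlap, although PSMD13 varies widely within other groups. PSMC4 was at 27.8, 22.1 and 12.3 CPM with osimertinib, which overlaps the vehicle range by the first of these.

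Adding 1,25(OH)2D3 to osimertinib gave 0 called members by edgeR, where 0.056% of genes were called higher and 0.04% lower. At an unadjusted p under 0.05 there were 3 (7.14%), all with lower levels, where 4.16% of all genes passed. PSMD4, the ubiquitin receptor of the cap, was at 229.7, 239 and 265 CPM with osimertinib and at 188, 163 and 189 CPM with both agents. The groups were apart, and the log2 fold change was −0.45 ± 0.10 (adjusted p = 0.379). DESeq2, which called 63 of 16986 genes (44 higher, 19 lower), called PSMD4 (adjusted p = 0.0196) and no other member. PSME2 and PSMD8 followed, with log2 fold changes of −0.34 and −0.32 (adjusted p = 1 for each). The median of the members was −0.12, with 34 of 42 below 0, where 49.4% of all genes were, with a median of 0.0029.

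For both agents against vehicle, DESeq2 called 0 of 42 members and 346 of 16986 genes. By edgeR 0 members were called too, where 0.384% of genes were called higher and 0.112% lower. At an unadjusted p under 0.05 there were 6 members (14.3%), 1 with a higher and 5 with lower levels, where 12.5% of all genes passed. PSMD4 (vehicle 232, 229 and 226 CPM) had a log2 fold change of −0.35 for both agents (adjusted p = 0.211). PSME4 was at 40.1, 44.1 and 23.7 CPM with vehicle and at 84.4, 66.3 and 48.8 CPM with both agents, a log2 fold change of 0.88 (adjusted p = 0.246). PSMD7, a lid subunit, was at 211, 151 and 176 CPM with vehicle and at 137, 129.8 and 139 CPM with both agents, a log2 fold change of −0.41 (adjusted p = 0.260). The groups were apart in each of these genes. They were picked for their small p, so the separation is not further evidence, and its share over all genes is not given for this comparison. The replicate letters pair the libraries of this comparison, and with the letter as a replicate block 2 members were called, PSME4 higher (log2 fold change 0.89, adjusted p = 0.0173) and PSMD7 lower (−0.40, adjusted p = 0.0476). In that fit 2.26% of genes were called higher and 1.42% lower.

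The median of the members with both agents was −0.20, with 33 of 42 below 0, against 49.9% of all genes and their median of 0.0012. Core and cap summed to 4266 ± 348 CPM (SD, n = 3) with both agents, 88.0% of the vehicle mean, and to 4735 ± 366 CPM (SD, n = 3) with osimertinib. Per library the sum was 5232, 4586 and 4727 CPM with vehicle and 4442, 3866 and 4491 CPM with both agents. The groups do not overlap, and within each letter the sum was lower with both agents. It was also lower within each letter than with osimertinib, at 5036, 4327 and 4843 CPM. These sums carry no test.

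**Figure D5:**
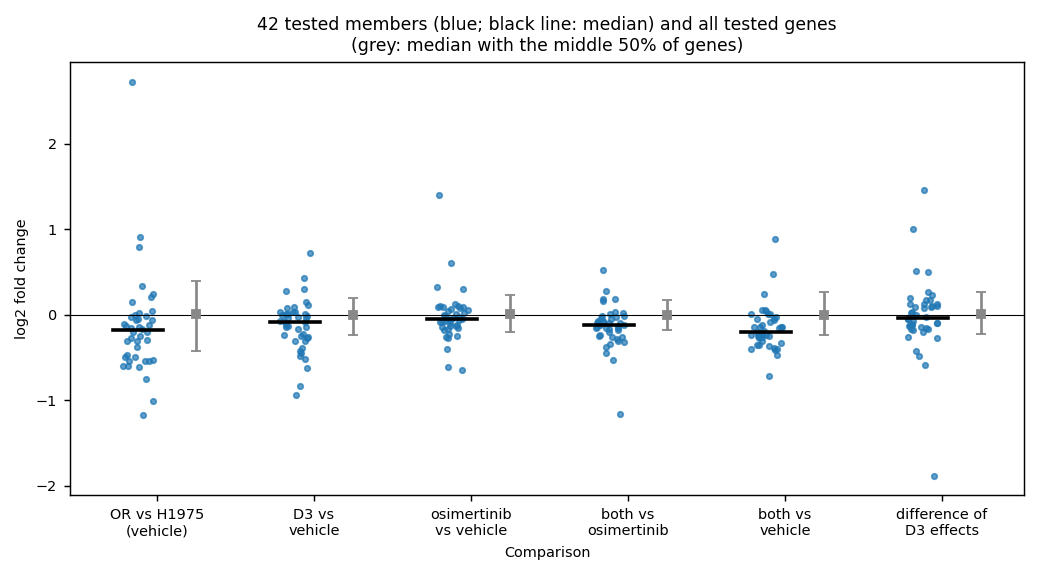
Log2 fold changes of the 42 tested members (blue points, black line at the median) and the median and middle 50% of all tested genes (grey) in each of the 6 comparisons. The medians of the members lie at −0.18, −0.079, −0.051, −0.12, −0.20 and −0.034 from left to right, each below that of all genes.

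The difference between the effect of 1,25(OH)2D3 with and without osimertinib was called for 0 of 42 members by DESeq2, which called 11 of 16986 genes. By edgeR it was called for 0 members too, where 0.0% of genes were called higher and 0.0% lower. At an unadjusted p under 0.05 there were 2 members, PSMD4 (difference of −0.48 on the log2 scale) and PSMB2 (−0.58), each with an adjusted p of 1. These are 4.76% of members, where 2.64% of all genes passed. PSMC4 came next, with a difference of 1.00. The median difference was −0.034. The inducible genes had log2 fold changes with 1,25(OH)2D3 of −0.44 (PSMB10), −0.27 (PSMB8) and −0.63 (PSMB9) without osimertinib, and of −0.18, −0.10 and −0.12 on top of it, of which none was called. The other 41 pathway genes had 0 calls in each of the treatment comparisons and in this difference.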

How the data were processed

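Stranded total RNA libraries (TruSeq, Ribo-Zero Gold, NextSeq500, paired-end) of 15 samples were deposited as 1 table. The values are estimated counts per gene, which the authors made with kallisto and tximport on hg38 and deposited without scaling for depth or length. The submitters' processing notes name kallisto 0.43.0, STAR 2.5.2b and CASAVA 1.8.2, with no role for the last pair. The transcript annotation is not given in the sources used here.

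Counts were rounded and analysed in R 4.3.3 with edgeR 4.0.16 (filterByExpr by group, minimum count 10 and total 15, TMM, quasi-likelihood test, Benjamini-Hochberg adjustment, threshold 0.05). H1975–OR against H1975 and 1,25(OH)2D3 against vehicle came from a fit of 8 libraries and 12513 genes. The comparisons with osimertinib came from a fit of 11 libraries and 12503 genes. Both leave out Sample 3a, which the study also set aside as atypical, so 1,25(OH)2D3 alone had 2 libraries. CPM come from 1 scaling of all libraries. Precision is given as the standard deviation between libraries for levels and as the standard error of the fit for fold changes.

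The named genes are the called members (with none called, the 3 smallest p), the extremes of each class in H1975–OR against H1975, the catalytic, inducible, activator and inhibitor genes and PSMC4, called pathway genes, unexpressed members and the 3 highest and lowest per kb. PSMD13 and the members closest outside the threshold were chosen after their values were seen. Some called pathway genes are not reported here. The members and lists were chosen with earlier results of these data known. Alternatives were RLE scaling, DESeq2 1.42.0, no filter, a minimum of 10 counts per library, Sample 3a retained, a replicate block, one fit of 14 libraries and each library left out.

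The replicate letters were checked by correlating deviations from group means between libraries of the same letter. Every pair correlated above 0.1 for both agents against either vehicle or osimertinib and for osimertinib against vehicle, so the letters pair these. They do not pair H1975–OR with H1975, or 1,25(OH)2D3 with vehicle, where 2 pairs remain.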

Additional observations from a re-analysis of the deposited data

How the results depend on the processing

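For H1975–OR against H1975, 12 members were called, and other settings gave between 4 and 15, while the count over all genes ran from 1426 to 2957 (2521 in the fit reported). The count was 4 with Sample 3a kept in, and leaving out 1 library each gave 6 to 15, with 6 without Sample 1b, 2b or 2c and 15 without Sample 2a. The replicate block gave 10, RLE scaling 13, DESeq2 14, no filter 11, at least 10 counts in every library 13, and one fit of 14 libraries 11. The letters do not pair these libraries. The median of the members in this comparison stayed below 0 under all 13 alternatives, between -0.30 and -0.18.

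For the treatments the count of called members was 0 except with DESeq2 for both agents against osimertinib, 1, and with the replicate block for both against vehicle, 2. The block changed no other call among the treatment comparisons. Leaving out 1 library moved the median of both against vehicle between -0.25 and -0.10, and that of the difference between 1,25(OH)2D3 effects between -0.13 and 0.037. That of osimertinib against vehicle ran from -0.090 to 0.020 and was above 0 without Sample 2a or 4b, and that of both against osimertinib from -0.18 to -0.050. The median for 1,25(OH)2D3 ran from -0.15 to -0.023, and was -0.19 with Sample 3a kept in and 0.0004 with the replicate block, with 21 members above and 21 below 0. The summed CPM of all members with 1,25(OH)2D3 was 5384, and 5359 with RLE scaling. The cause of these shifts was not tested.

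Depth limits PSMA5, at 3 to 79 counts, and PSMD9, at 13 to 41 counts.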
